A study of Mus musculus with 4 samples.

Results

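The genes described here are Ccl6, Ccl9, Ccl25, Ccl28, Cx3cl1 and Cxcl16, 6 chemokine genes known from epithelium and found by symbol among the 31053 genes of the deposited matrices. Those matrices hold 47 chemokine gene entries in all, and the 6 genes took 98.6% of the chemokine UMIs of the kept cells. A UMI is a molecular tag that marks 1 captured RNA molecule, and levels are given as CPM, UMIs of a gene per 1000000 UMIs of the same sum of cells. Single-cell RNA libraries were made with 10x Genomics 3' v3.1 chemistry from mouse duodenal crypt cells that carried the red reporter TOM and were sorted alive. The WT group, with 2 libraries, had the genotype Atoh1CreER-T2;R26RTom. The APC-KO group, with 2 libraries, is labelled Atoh1Cre;Apcfl/fl;R26RTom for the sample, while the series' design text names Atoh1CreER-T2 as the driver of both groups. Both groups received tamoxifen, which activates CreER-T2, in 2 doses of 1 mg/mL with an interval of 24 h, and crypts were taken 12 h after the second dose. Atoh1 is the transcription factor of secretory precursors, so the driver and the sort set which cells entered the libraries. Apc restrains the Wnt pathway, and the design asks what its loss does in these cells. Age, sex, animal and batch are not given in the labels used here, so the libraries are not shown to come from separate animals, and p-values measure the spread between libraries.

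Chemokines are small secreted proteins that guide leukocytes through G protein-coupled receptors. Ccl6 and Ccl9 are CC chemokines of rodents that act mainly through Ccr1 and are best known from myeloid cells. Ccl25 is the ligand of Ccr9 and draws lymphocytes to the small intestine, and Ccl28 is the ligand of Ccr3 and Ccr10 and draws plasma cells that make IgA to mucosae. Cx3cl1 and Cxcl16 are the chemokines made as membrane proteins with a mucin stalk, which the proteases Adam10 and Adam17 can cut. Their receptors are Cx3cr1 and Cxcr6.

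The deposited tables name 12 cell types, printed here as deposited. The kept cells numbered 4814 and 3821 in WT replicates 1 and 2, and 356 and 6243 in APC-KO replicates 1 and 2. Their medians were 4841.5, 5354, 8370 and 3973 UMIs per cell. APC-KO replicate 1 stood apart: its kept cells held 5.15% of the UMIs of its library, against 37.6% to 50.3% in the others, and 9 of its types had under 20 cells. Pairs of libraries shared 1 to 8 cell barcodes. Apc was at 87.2, 77.9, 88.1 and 88.1 CPM in the 4 libraries, but a 3' tag outside a deleted exon does not check the deletion. The markers fitted most names: the goblet marker sum was highest in GOBLET cells, the Paneth sum in PANETH cells, the stem cell sum in ISC cells, the tuft sum in TUFT cells and the enterocyte sum in ENTERO-PRO cells. The enteroendocrine markers were highest in the cells named EC, at 62171 to 82681 CPM. Tph1 had a mean of 1772 CPM in EC and 17.7 in NON-EC cells, and Tac1 4046 and 89.8 CPM. Cck, at 78.8 and 5217 CPM, and Gcg, at 0.267 and 660 CPM, were higher in NON-EC cells. These markers fit enterochromaffin cells as the meaning of EC. The sources used here do not expand the name, and it is printed as deposited. Leukocyte markers were low. The myeloid genes Csf1r, Adgre1 and Itgax had at most 2 UMIs in any library and S100a8 had none. Cd68 had 45, 49, 5 and 83 UMIs in the order of the libraries above, Lyz2 13, 11, 1 and 32, and Fcer1g 9, 8, 0 and 26. Without H2-Aa, which epithelium also makes, the other 16 genes of the list summed to 3.32 to 25.03 CPM. Fibroblast and endothelial markers summed to at most 3.32 CPM over all kept cells.

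Ccl6 was by far the most abundant chemokine RNA of these cells. It took 75.4% of all chemokine UMIs and Ccl9 took 16.1%. In goblet precursors, named GOBLET-PRE, Ccl6 was at 2612, 3016, 2960.2 and 3283 CPM, given throughout in the order of WT replicates 1 and 2, then APC-KO replicates 1 and 2. In GOBLET cells it was at 2574, 2733, 1925 and 2572 CPM. In GP cells it was at 1753, 1924 and 1639 CPM in the 3 libraries with at least 20 cells, and 7 GP cells of APC-KO replicate 1 gave 3357 CPM from 161 UMIs. All goblet types thus lay above 1600 CPM in every library.

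Among the progenitor types, Ccl6 was graded. SEC-PRO cells held 736, 765 and 815 CPM, ENTERO-PRO cells 278, 349.6 and 536 CPM and ISC cells 194, 77.3 and 74.7 CPM in WT replicates 1 and 2 and APC-KO replicate 2. The 5 SEC-PRO cells of APC-KO replicate 1 gave 29 UMIs, and its 11 ENTERO-PRO and 13 ISC cells gave 3 UMIs each. The ISC level of WT replicate 1 rested on few cells, since 15 of its 575 ISC cells had 10 or more Ccl6 UMIs and held 54.2% of them.

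Over the 12 types, PANETH-PRE cells had the highest mean Ccl6 level, at 3481 ± 1082 CPM (SD, n = 3 libraries with at least 20 cells). GOBLET-PRE followed at 2968 ± 276 CPM (n = 4), GOBLET at 2451 ± 359 CPM (n = 4), PANETH at 2034 ± 326 CPM (n = 3) and GP at 1772 ± 143 CPM (n = 3). The ranges of neighbours in this order overlapped, while GOBLET-PRE lay wholly above PANETH and GP in the libraries with at least 20 cells. PANETH-PRE was above GOBLET-PRE in 2 of 3 libraries, and in APC-KO replicate 2 it was at 0.70 times the GOBLET-PRE level. GOBLET-PRE was above GOBLET in all 4 libraries, and GOBLET above PANETH and PANETH above GP in 3 of 3. Below them SEC-PRO at 772 ± 40.1 CPM and ENTERO-PRO at 388 ± 133 CPM were each separate from the type above. NON-EC, EEC-PRE, TUFT, ISC and EC cells, at means of 110 to 155 CPM, overlapped one another. Since goblet markers alone made up 383923 to 451575 CPM of GOBLET cells and Paneth markers 276439.7 to 400104 CPM of PANETH cells, the levels were also computed without these and the defensin genes. PANETH then led with 4567 CPM, before GOBLET at 4237, PANETH-PRE at 4235 and GOBLET-PRE at 3684.

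In every library free RNA carried Ccl6 as well. Barcodes with 1 to 50 UMIs, which are taken to hold no cell, had 814, 1187, 780 and 842 CPM of Ccl6, and 175, 205, 158 and 218 CPM of Ccl9. Cell types with low levels are read against this. After thinning each cell to 2000 UMIs, a Ccl6 UMI was found in 82.6% to 88.6% of GOBLET-PRE cells over the 4 libraries, and in 9.07%, 11.6%, 6.67% and 15.3% of EC cells. Unthinned, the shares were 87.9% to 91.3% and 13.3% to 18.3%, at median depths of 3996 to 10214 and 2413 to 6426 UMIs. The level in EC cells, 85.4, 96.2, 22.0 and 235 CPM, was below that of free RNA in each library. SEC-PRO cells, at 736 to 815 CPM, also lay below free RNA of the same library wherever they numbered at least 20. The same held for ENTERO-PRO, ISC, NON-EC, EEC-PRE and TUFT cells. Free RNA can be only a part of the UMIs of a cell. A level below that of free RNA thus does not show that a type lacks the RNA, for Ccl6 or the other genes.

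**Figure D1:**
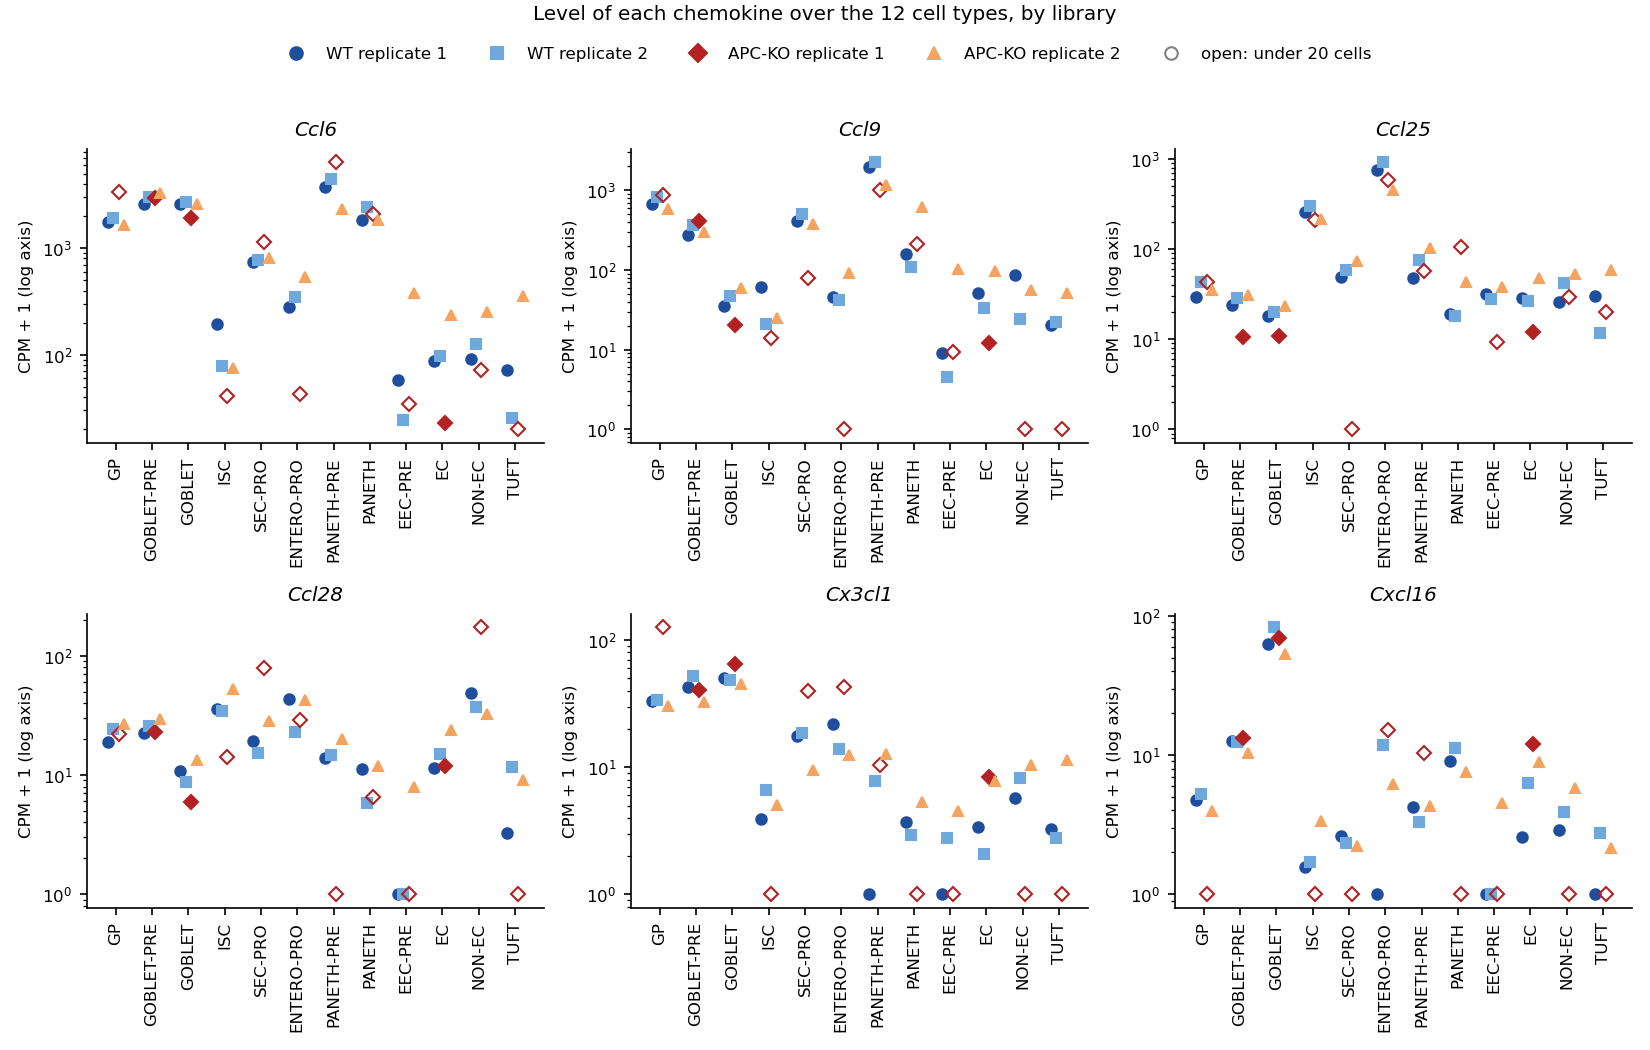
Level of the 6 chemokines in each of the 12 deposited cell types, as CPM + 1 on a log axis, with 1 point for each library and open points for types with under 20 cells. Ccl6 is above 1600 CPM in every library in the goblet types, Ccl25 is highest in ENTERO-PRO and ISC cells, and Cxcl16 is highest in GOBLET cells.

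Ccl9 had another order than Ccl6 within the same lineages. It was highest in PANETH-PRE cells, at 1987, 2251 and 1161 CPM in WT replicates 1 and 2 and APC-KO replicate 2, and at 998 CPM from 107 UMIs of 11 cells in APC-KO replicate 1. GP cells followed at 684, 828 and 578 CPM. SEC-PRO cells were at 413, 506 and 376 CPM, below GP in each of these libraries. GOBLET-PRE cells were at 278, 364, 408 and 296 CPM, and GOBLET cells only at 34.5, 46.7, 19.6 and 59.1 CPM. PANETH cells were at 157, 107, 210 and 610 CPM, with the highest value in APC-KO replicate 2. The means of PANETH-PRE, GP and SEC-PRO, 1800 ± 569, 697 ± 125 and 432 ± 67.1 CPM (SD, n = 3), had ranges that did not overlap. SEC-PRO, GOBLET-PRE and PANETH overlapped one another in this order. Their order depended on the total used. Without marker and defensin genes in it, PANETH had a mean of 592 CPM, above SEC-PRO at 454 and GOBLET-PRE at 417. PANETH-PRE at 2192 CPM and GP at 765 CPM then still led. The other 7 types lay at means of 30.1 to 58.9 CPM, below the level of free RNA.

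Set against Ccl6, Ccl9 was abundant in SEC-PRO and PANETH-PRE cells and nearly absent in GOBLET cells. Per 100 Ccl6 UMIs, SEC-PRO cells held 56.1, 66.2 and 46.1 Ccl9 UMIs in WT replicates 1 and 2 and APC-KO replicate 2, and GP cells 39.0, 43.1 and 35.3. GOBLET-PRE cells held 10.6, 12.1, 13.8 and 9.0 in the 4 libraries, and GOBLET cells 1.34, 1.71, 1.02 and 2.30. PANETH-PRE cells held 53.6, 50.8 and 50.4, and PANETH cells 8.54, 4.45 and 32.9. In all 3 libraries with at least 20 cells of each type, the ratio had the order SEC-PRO, GP, GOBLET-PRE, GOBLET, and PANETH was below PANETH-PRE. Free RNA held 21.5, 17.3, 20.3 and 25.8. SEC-PRO cells lay above the ratio of free RNA and GOBLET cells below it in WT replicates 1 and 2 and in APC-KO replicate 2. In APC-KO replicate 1 both lay below it, with 2 Ccl9 and 29 Ccl6 UMIs in SEC-PRO cells.

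**Figure D2:**
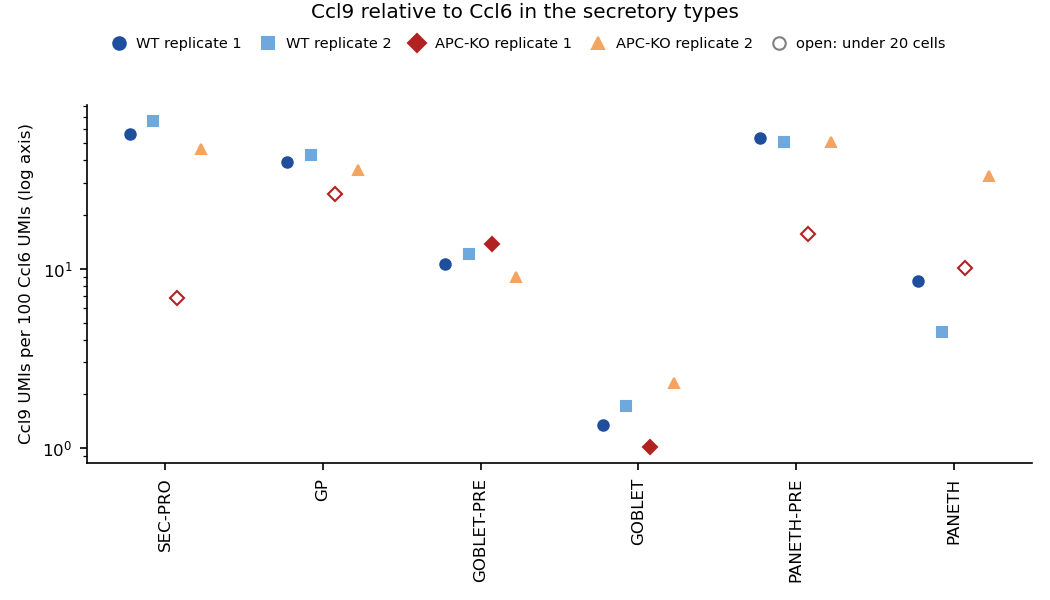
Ccl9 UMIs per 100 Ccl6 UMIs in the 6 types of the goblet and Paneth lineages, on a log axis, 1 point for each library, open for under 20 cells. The ratio is 46.1 to 66.2 in SEC-PRO cells and 1.02 to 2.30 in GOBLET cells of the libraries with at least 20 cells.

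The same UMIs were also counted by single cell, which adds no separate evidence. Whether both genes met in a cell more or less often than their own shares imply was not tested. After thinning to 2000 UMIs, 4.91%, 5.93%, 0% and 8.63% of GOBLET cells had a UMI of both genes, while 88.3%, 87.4%, 85.2% and 87.1% had Ccl6 without Ccl9. The 0% is from 27 thinned cells. In SEC-PRO cells of both WT libraries and APC-KO replicate 2, Ccl9 without Ccl6 was seen in 24.2%, 23.7% and 18.4% of cells, and both in 16.8%, 17.4% and 18.2%. In GP cells, both were seen in 27.1%, 32.6% and 29.5%. PANETH-PRE cells had both in 53.3%, 45.9% and 36.8%. A missing UMI in a thinned cell does not show that the gene was silent there.

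**Figure D3:**
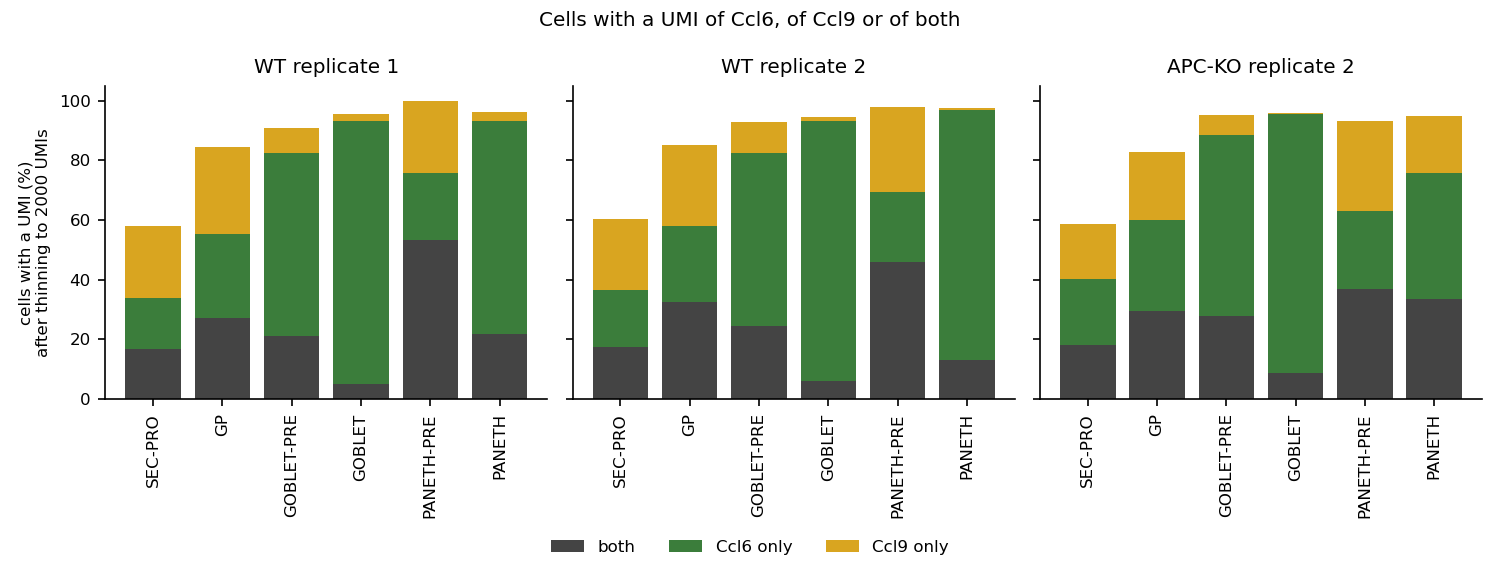
Percent of cells, each thinned to 2000 UMIs, with a UMI of Ccl6 and Ccl9 (dark), of Ccl6 only (green) or of Ccl9 only (yellow), in 6 types of the 3 libraries with at least 20 cells of each. Cells with Ccl9 only are 18.4% to 24.2% of SEC-PRO and 0.392% to 2.45% of GOBLET cells.

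Ccl6 and Ccl9 lie side by side on mouse chromosome 11 (GRCm38, GENCODE vM21), both on the minus strand. Ccl9 (ENSMUSG00000019122) spans positions 83572919 to 83578636 and Ccl6 (ENSMUSG00000018927) spans 83587882 to 83593087, with 9.245 kb and 0 annotated genes between them. Ccl6 overlaps the noncoding gene E230016K23Rik on the opposite strand. How reads that match both genes, or an overlapping gene, were counted is not given in the sources used here. The 100 bases before the start of each gene are shown, from RefSeq on GRCm38.p6, because these neighbours gave the most UMIs of all chemokines here. The capitals mark the longest run of bases that both stretches hold, of 13 bases.
Ccl6, chr11:83593088-83593187, minus strand: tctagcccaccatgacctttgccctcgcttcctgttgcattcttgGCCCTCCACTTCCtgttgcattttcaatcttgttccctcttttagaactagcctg
Ccl9, chr11:83578637-83578736, minus strand: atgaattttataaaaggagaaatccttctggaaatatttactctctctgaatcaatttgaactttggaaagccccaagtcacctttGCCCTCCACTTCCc
The run starts 55 bases before the Ccl6 start and 14 bases before the Ccl9 start, and 5 of 32851 RefSeq promoter windows hold it. The windows of 300 bases, from 250 before to 50 after the start, aligned over 74 columns with 58 identical (78.4%). Of 3 motifs searched on both strands in the 250 bases before the start, the E-box CAGCTG was found at -202 for Ccl9 and at -183 for Ccl28, and 13.0% of all windows hold it. The NF-kB consensus was found at -35 for Ccl9, where 7.25% of windows hold a match, and it does not overlap the shared run. The TCF/LEF motif CTTTGAT, held by 3.21% of windows, was not found in the windows of Ccl6, Ccl9, Ccl25, Ccl28 or Cx3cl1. A match is only a match of letters.

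Ccl25 was highest in ENTERO-PRO cells, the type with the most enterocyte marker RNA, and next in ISC cells. ENTERO-PRO cells held 753, 919, 590.4 and 449 CPM in the 4 libraries, the value of APC-KO replicate 1 coming from 42 UMIs of 11 cells. ISC cells held 255, 300.1, 211 and 213 CPM, the third value from 16 UMIs of 13 cells. SEC-PRO cells held 48.7, 57.1 and 72.4 CPM in the libraries with at least 20 cells. GOBLET and GOBLET-PRE cells had the lowest means. GOBLET cells held 17.3, 19.1, 9.79 and 22.4 CPM and GOBLET-PRE cells 22.8, 27.6, 9.54 and 29.8 CPM. GP cells had a mean of 34.6 CPM. Without marker and defensin genes in the total, the mean of GOBLET was 29.7 CPM, above EC at 28.2 and GOBLET-PRE at 27.8. ENTERO-PRO at 707 ± 238 CPM, ISC at 256 ± 43.4 CPM and PANETH-PRE at 74.8 ± 27.4 CPM (SD, n = 3) did not overlap. From PANETH-PRE down each pair of neighbours overlapped. Free RNA held 154, 172, 139 and 189 CPM, above all types but the first 2. Thinned shares of cells with a UMI were 77.4%, 70.3% and 53.2% in ENTERO-PRO cells and 2.45%, 2.59%, 3.70% and 3.53% in GOBLET cells. Ccl25 (ENSMUSG00000023235) spans 4325210 to 4360020 on the plus strand of chromosome 8 and overlaps Elavl1 on the minus strand.

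Ccl28 was low and spread widely. ISC cells held 34.4, 33.3 and 51.5 CPM, NON-EC cells 47.4, 36.3 and 31.7 CPM and ENTERO-PRO cells 42.1, 21.7 and 41.4 CPM in WT replicates 1 and 2 and APC-KO replicate 2. GOBLET-PRE cells held 21.5, 24.5, 21.9 and 28.5 CPM and GOBLET cells 9.86, 7.79, 4.90 and 12.2 CPM. EEC-PRE cells had 0 UMIs in 3 libraries and 4 in APC-KO replicate 2. Each type overlapped its neighbour in the order of means, and the highest type cannot be told from the next, but GOBLET-PRE lay above GOBLET in all 4 libraries without overlap. Free RNA, at 25.3, 18.5, 19.8 and 43.5 CPM, lay within the same range. Ccl28 (ENSMUSG00000074715) spans 119623819 to 119654359 on the plus strand of chromosome 13.

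Cx3cl1 and Cxcl16 were highest in the goblet types, Cx3cl1 in all of them and Cxcl16 mainly in GOBLET cells. Cx3cl1 was at 49.3, 47.4, 63.7 and 43.8 CPM in GOBLET, at 41.6, 51.1, 39.3 and 31.8 CPM in GOBLET-PRE and at 32.0, 32.8 and 29.1 CPM in GP cells. These types overlapped in this order, and the next, ENTERO-PRO with 15.2 ± 5.13 CPM (SD, n = 3), was separate from GP. ISC cells held 2.92, 5.68 and 4.01 CPM and SEC-PRO cells 16.8, 17.5 and 8.56 CPM. Cxcl16 was at 61.6, 81.4, 68.6 and 52.0 CPM in GOBLET and at 11.6, 11.5, 12.3 and 9.28 CPM in GOBLET-PRE cells, so every library kept the order. The ratio of the means was 5.90 for Cxcl16 and 1.25 for Cx3cl1. No other type had a mean of Cxcl16 above 8.26 CPM, and ISC, SEC-PRO, EEC-PRE and TUFT cells had 0.975 to 1.41 CPM. Free RNA held 13.3 to 18.1 CPM of Cx3cl1 and 6.68 to 11.5 CPM of Cxcl16. Both genes rested on few UMIs, 1617 and 620 in all, and thinned shares in GOBLET cells were 7.36% to 14.8% and 7.45% to 16.3%. Cx3cl1 (ENSMUSG00000031778) spans 94772009 to 94782427 on the plus strand of chromosome 8. Cxcl16 (ENSMUSG00000018920) spans 70453983 to 70459984 on the minus strand of chromosome 11 and overlaps Zmynd15 on the plus strand.

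The genes whose level over the 12 types was most like that of each member were ranked by Pearson's r of log2(CPM + 1), with the mean of the 2 WT libraries and 12 points. The types of a library share its depth and its free RNA, so r is a description. For Ccl6 they were Ramp1 (r = 0.98), a partner of the calcitonin receptor-like receptor, Spink4 (0.98) and Edem1 (0.97) of endoplasmic reticulum quality control. Spink4 is on the goblet marker list, but in WT it was highest in PANETH-PRE cells, at 38154 CPM. For Ccl9 they were Serp1 (0.94) and Spcs3 (0.94), both of protein translocation and processing in the endoplasmic reticulum, and Glb1 (0.94), a lysosomal galactosidase. For Ccl25 they were the fructose kinase gene Khk (0.96), Dmbt1 (0.96) and the bicarbonate transporter gene Slc4a4 (0.94). For Cx3cl1 they were Clca1 (0.95), Fer1l6 (0.94) and Ifi27l2b (0.94), all highest in GOBLET cells. Likeness was weaker for Ccl28, with Abhd14b (0.86), Pon2 (0.84) and Paqr4 (0.84), and for Cxcl16, with Cyp2c68 (0.84), Ddx60 (0.83) and Fam3b (0.83). Over the types of APC-KO replicate 2 the same pairs had r of 0.92 to 0.97 for Ccl6, 0.76 to 0.91 for Ccl9, 0.87 to 0.97 for Ccl25, 0.54 to 0.67 for Ccl28, 0.86 to 0.91 for Cx3cl1 and 0.72 to 0.86 for Cxcl16. Between members, Ccl6 with Ccl9 was the most alike pair, with r of 0.79 in WT and 0.74 in APC-KO replicate 2.

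The other chemokine entries were scarce: 23 of 41 had no UMI and 8 had over 30 UMIs. Ccl5, a T cell chemokine, led them at a mean of 7.03 CPM, before Ccl27a at 5.68 and Cklf at 5.12. Ccl5 was at 7.58, 2.67, 0.665 and 17.2 CPM in the 4 libraries, beside Gzma, a cytotoxic lymphocyte gene, at 5.71, 1.43, 0 and 12.4 CPM. Of the 10 receptor genes, Ackr4, an atypical receptor that takes up Ccl25, was the highest, with a mean of 69.8 CPM in TUFT cells and 1.93 CPM over all cells. Ccr9 followed at 0.378 CPM. Adam10 and Adam17 were at 73.7 and 18.2 CPM. On the cytokine list the receptor gene Il10rb led with 33.4 CPM, before the cytokine genes Il18 with 16.6 and Tnf with 3.12, and Il18 reached 103 CPM in ENTERO-PRO cells. Of the NF-kB genes Nfkbia led with 90.1 CPM.

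The genotypes were compared on UMI sums for each library with edgeR's quasi-likelihood test and Benjamini-Hochberg adjustment over all genes tested, at 0.05. In none of 6 sums was any of the 6 genes called. The sum of all kept cells, ALL, called 0% of 13345 genes and EC called 0% of 8690. GOBLET called 0.0837% of 5974 genes and GOBLET-PRE 0.00974% of 10272. PROGENITOR, which joins ISC, SEC-PRO and ENTERO-PRO cells, called 0.92% of 11092. PANETH-LINEAGE, which joins both Paneth types, called 0.663% of 8599. With no adjustment, 2 of 6 tested members had a p under 0.05 in PROGENITOR and 2 of 5 in PANETH-LINEAGE, beside 12.4% and 14.8% of all genes. No member did in ALL, EC, GOBLET and GOBLET-PRE, with 6, 4, 5 and 6 tested, where 3.71%, 8.39%, 11.2% and 7.95% of all genes did. The DESeq2 Wald test called 0 members in each sum. It gave no adjusted p for 13559 of 15542 genes in EC, 15351 of 17213 in PROGENITOR and 13415 of 15042 in PANETH-LINEAGE. Genes with no adjusted p were counted as not called. A missed threshold with 2 libraries a group does not show equal levels.

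**Figure D4:**
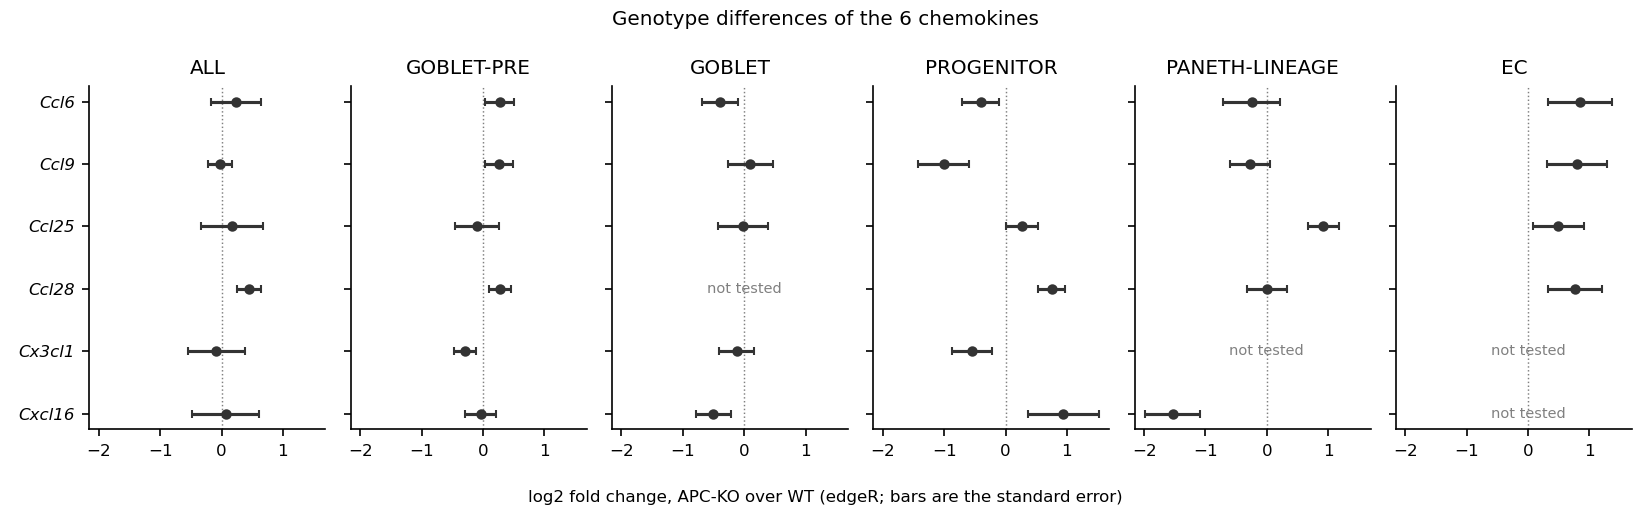
Fitted log2 fold change of APC-KO over WT with its standard error for the 6 chemokines in 6 sums of cells, 2 libraries a genotype; genes that did not pass the filter on low counts are marked as not tested. None is past the threshold, and the largest are Cxcl16 at -1.53 in PANETH-LINEAGE and Ccl9 at -1.01 in PROGENITOR.

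Over all kept cells Ccl6 was at 1412, 1918, 2306 and 1314 CPM, and the WT values lay between those of APC-KO. Its fitted log2 fold change of APC-KO over WT was 0.23 (SE 0.40). Ccl9 was at 313, 369, 307 and 322 CPM, Ccl25 at 82.6, 70.0, 36.9 and 125 CPM, Ccl28 at 20.9, 19.4, 20.6 and 30.4 CPM, Cx3cl1 at 21.7, 28.5, 31.9 and 14.2 CPM and Cxcl16 at 6.77, 11.8, 13.6 and 6.01 CPM. The groups overlapped for all 6 genes, while 34.5% of all genes tested had separate groups, and the APC-KO libraries lay on both sides of WT for Ccl25, Cx3cl1 and Cxcl16. Their cell makeup differed too: the goblet marker sum was 147892 CPM in APC-KO replicate 1 and 78809 in APC-KO replicate 2, against 91155 and 105078 in WT. With an equal mix of EC, GOBLET and GOBLET-PRE cells in each library, the differences were -0.14 for Ccl6, -0.12 for Ccl9, -0.34 for Ccl25, 0.12 for Ccl28, 0.45 for Cx3cl1 and 0.34 for Cxcl16. In this fit limma called 0 of all 5622 genes tested, and so none of the members.

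In goblet precursors, the largest comparable type, the fitted differences of the 6 genes with all 4 libraries were at most 0.29 on the log2 scale. Ccl25, at 22.8, 27.6, 9.54 and 29.8 CPM, was at -1.23 without APC-KO replicate 2. Ccl6 differed by 0.27 (SE 0.23) and Ccl9 by 0.26 (SE 0.23). For Cx3cl1 the groups did not overlap, with 41.6 and 51.1 CPM in WT and 39.3 and 31.8 in APC-KO (log2 difference -0.29, SE 0.19, adjusted p = 0.713 by edgeR). Such separation was seen in 41.8% of all genes tested in this sum. In GOBLET cells Ccl6 was the only one of 5 tested members without overlap, at 2574 and 2733 CPM in WT and 1925 and 2572 in APC-KO (log2 difference -0.39, SE 0.29, adjusted p = 0.649 by edgeR). Of all genes tested there, 44% were separate.

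In the summed progenitors 4 of 6 members had groups that did not overlap, beside 43.1% of all genes. Ccl9 was at 207 and 286.5 CPM in WT and 17.4 and 152 in APC-KO (log2 difference -1.01, SE 0.41, adjusted p = 0.334 by edgeR). The 17.4 CPM are 3 UMIs of 29 cells. Ccl9 passed the test without APC-KO replicate 2, at -3.73 (adjusted p = 0.00609 by edgeR) beside 1.29% of all genes, and with the replicate number as a block, at -1.45 (adjusted p = 0.0042 by edgeR) beside 1.32%. Ccl28 was at 28.5 and 21.7 CPM in WT and 29.0 and 41.6 in APC-KO (0.75, SE 0.22, adjusted p = 0.143 by edgeR). Without APC-KO replicate 1 the Ccl28 difference was 0.79 and passed the test (adjusted p = 0.0452 by edgeR), where 4.43% of all genes did. Ccl6 was at 431 and 482 CPM in WT and 203 and 407 in APC-KO (-0.40, SE 0.30). Cxcl16 had 7, 9, 1 and 32 UMIs (0.94, SE 0.58). The makeup of this sum moved with the genotype: SEC-PRO cells, which hold most of its Ccl9, were 44.0% and 56.9% of it in WT and 17.2% and 33.5% in APC-KO. Within SEC-PRO cells Ccl9 was at 413 and 506 CPM in WT and 376 in APC-KO replicate 2, with 2 UMIs in APC-KO replicate 1. The part of the makeup was not tested further.

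ISC cells alone were an added comparison, chosen after seeing the data, and there 2 members were called, beside 3.57% of all genes. Ccl6 was at 194 and 77.3 CPM in WT and 39.6 and 74.7 in APC-KO (-0.91, SE 0.24, adjusted p = 0.00845 by edgeR). Ccl9 was at 59.8 and 19.9 CPM in WT and 13.2 and 23.7 in APC-KO, and these groups overlapped (-0.85, SE 0.26, adjusted p = 0.0419 by edgeR). The values of APC-KO replicate 1 come from 3 and 1 UMIs of 13 cells. In WT replicate 1, 4 ISC cells with 10 or more Ccl9 UMIs held 27.3% of its Ccl9 UMIs. Some marker sums of other types were also highest in WT replicate 1 and lowest in APC-KO replicate 1 in ISC cells. The goblet sum was 9031, 4977, 3549 and 5465 CPM, the Paneth sum 3608, 3253, 435 and 1888 CPM. The enteroendocrine sum was 482, 167, 26.4 and 190 CPM. Other sums had another order: enterocyte markers were at 795, 771, 897 and 682 CPM and leukocyte markers at 228, 231, 422 and 282 CPM. Tuft markers were at 19.0, 7.80, 13.2 and 10.5 CPM. Their part in these calls was not tested. In ENTERO-PRO cells alone, where Ccl25 is highest, Ccl25 was at 753 and 919 CPM in WT and 590.4 and 449 in APC-KO, and the groups did not overlap (-0.68, SE 0.30, adjusted p = 0.632 by edgeR). There 0.0788% of genes passed.

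Whether the genotype difference was another in goblet precursors than in progenitors was tested in 1 fit of both sums with the library as a block, which called 0.633% of 11381 genes. Ccl9 was 1 of them. Its log2 fold change was higher by 0.96 (SE 0.21, adjusted p = 0.00408 by edgeR) in GOBLET-PRE than in PROGENITOR cells. The levels behind it were 278, 364, 408 and 296 CPM in GOBLET-PRE and 207, 286.5, 17.4 and 152 CPM in PROGENITOR cells. The call was lost with the DESeq2 Wald test, with free RNA subtracted, and without WT replicate 1 or 2. Without APC-KO replicate 1 the difference was 0.56 (adjusted p = 0.00171 by edgeR) and Ccl6 passed too, with 0.37 (adjusted p = 0.00172), beside 1.01% of all genes. With all libraries Ccl6 differed by 0.70 (SE 0.27, adjusted p = 0.404). The goblet markers Atoh1, Agr2 and Spdef moved the same way in this fit, by 0.87, 1.21 and 0.73, as did the Paneth markers Itln1, Lyz1, Defa24 and Mmp7, by 1.03 to 1.76, and the Wnt target Axin2, by 1.18. Lyz1 and Defa24 have close relatives, and counting could split their reads. The enterocyte marker Apoa1 (-0.80) and the NF-kB inhibitors Nfkbia (-0.72) and Tnfaip3 (-2.33) moved the other way. Of the NF-kB list 2 of 14 tested genes passed, both lower, with a median of -0.08 beside 0.04 over all genes.

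**Figure D5:**
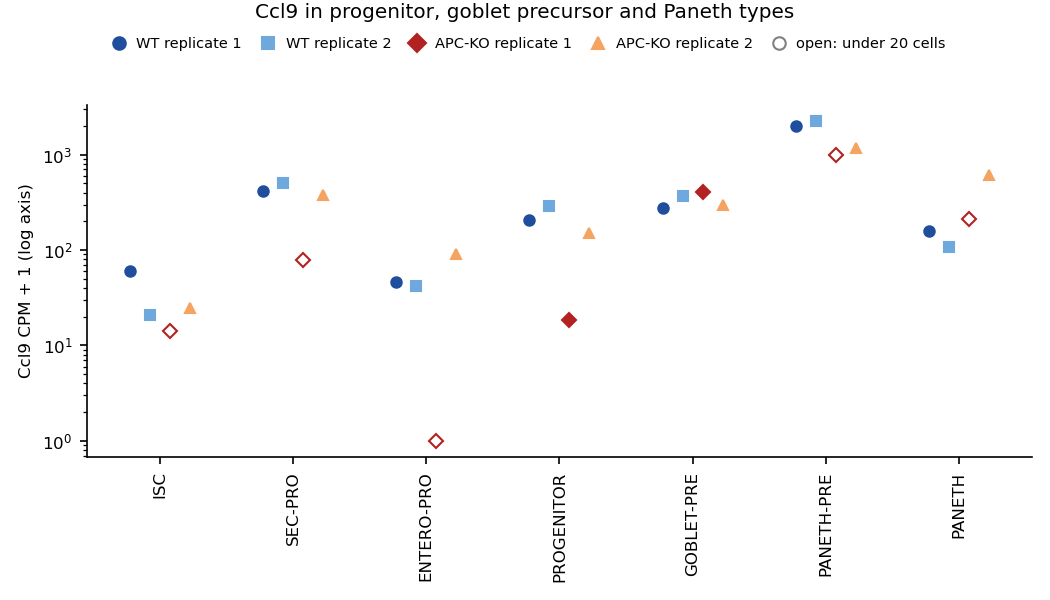
Ccl9 level as CPM + 1 on a log axis in the 3 progenitor types, their sum (PROGENITOR), goblet precursors and both Paneth types, 1 point for each library, open for under 20 cells. In PROGENITOR cells the APC-KO libraries, at 17.4 and 152 CPM, lie below both WT libraries, and in PANETH cells, at 210 and 610 CPM, above them.

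In the Paneth lineage no member passed the test and 2 of 5 had separate groups, beside 51.2% of all genes. Ccl25 was at 26.8 and 27.1 CPM in WT and 86.8 in APC-KO replicate 1 and 77.8 in APC-KO replicate 2 (0.92, SE 0.25, adjusted p = 0.121 by edgeR). The enterocyte marker sum of PANETH cells was 185 and 174 CPM in WT and 1094 and 421 in APC-KO, and its part was not tested. PANETH-PRE cells were 53.5% and 32.9% of the cells of this sum in WT and 40.7% and 68.7% in APC-KO. Their mean of Ccl25 was 74.8 CPM, against 25.8 in PANETH cells. The log2 ratio of mean Ccl25 CPM, APC-KO over WT, was 2.06 in PANETH and 0.36 in PANETH-PRE cells. The part of this makeup in the differences of the sum was not tested. Cxcl16 had 14 and 22 UMIs in WT and 1 and 21 in APC-KO (-1.53, SE 0.45, adjusted p = 0.139 by edgeR). Ccl9 went opposite ways in both Paneth types. PANETH cells held 157 and 107 CPM in WT and 210 and 610 in APC-KO, and PANETH-PRE cells 1987 and 2251 CPM in WT and 998 and 1161 in APC-KO. The goblet marker sum of PANETH cells, at 30243, 18947, 30938 and 77125 CPM, had the same order of libraries as Ccl9. That sum is not particular to goblet cells. Its gene Spink4 had a mean of 27238 CPM in PANETH, 35504 in PANETH-PRE and 11265 in GOBLET cells. The Paneth marker sum was lower in both APC-KO libraries, at 400104, 386539, 320179 and 276439.7 CPM in PANETH cells and 130252, 110888, 97636 and 41344 CPM in PANETH-PRE cells. Their part was not tested. A fit of both types, chosen after seeing the data, put the Ccl9 difference of PANETH-PRE below that of PANETH by 2.04 (log2 difference -2.04, SE 0.36, adjusted p = 0.000974 by edgeR), where 0.306% of 7839 genes passed. APC-KO replicate 1 has 16 and 11 cells of these types, and without it the difference was -2.47 (adjusted p = 0.00884 by edgeR). Without WT replicate 2 it was -1.60 and without APC-KO replicate 2 it was -1.37, both past no threshold (adjusted p = 1.00 and 0.662), and the DESeq2 Wald test gave -1.98 (adjusted p = 0.123).

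In EC cells the 2 APC-KO libraries disagreed. The groups overlapped for all 4 tested members, while 38.9% of all genes tested had separate groups. Ccl6 was at 85.4 and 96.2 CPM in WT and at 22.0 and 235 in APC-KO (0.85, SE 0.52, adjusted p = 0.694 by edgeR). Ccl9 was at 50.3 and 32.1 CPM in WT and at 10.98 and 96.8 in APC-KO. Without APC-KO replicate 1 both passed the test as higher, by 1.42 and 1.23, beside 4.31% of all genes, and without APC-KO replicate 2 Ccl6 passed as lower, by -1.95, beside 1.08% of all genes. The goblet marker sum of EC cells was 7850, 5577, 4329 and 15248 CPM, lowest and highest in the same libraries as Ccl6, while the WT libraries had the opposite order. In TUFT cells Ccl6 was at 70.6, 24.7, 18.9 and 351 CPM beside goblet sums of 4990, 3562, 2291 and 26707 CPM, in the same order. Its part in these values was not tested.

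Of the lists fixed beside the members, no chemokine receptor, sheddase, cytokine or other chemokine gene passed in any of the 6 genotype fits. Genes removed by the filter on low counts could not pass. Of the 10 receptor genes 1 was tested in ALL and 0 in the other sums. Of the 16 cytokine list genes 11 were tested in ALL and 1 to 6 in the other sums. Outside ALL, 1 to 5 of the 36 other chemokine genes were tested. In ALL, 9 of 36 other chemokine genes were tested, with a median of -0.12 beside 0.01 over all genes, and 16 of 16 NF-kB genes, with a median of 0.03. In PROGENITOR the passing list genes were the goblet gene Agr2, lower by -1.74 (adjusted p = 0.00914 by edgeR), and the apolipoprotein genes Apoa1 and Apoa4, higher by 2.11 and 2.51 (adjusted p = 0.0230 and 0.000538 by edgeR). In PANETH-LINEAGE it was the proliferation gene Mki67, higher by 1.64 (adjusted p = 0.0239 by edgeR).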

How the data were processed

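Unfiltered gene by barcode matrices of UMI counts were deposited for 4 libraries. They came from Cell Ranger 3.0.2 and STAR on mm10, per the submitters' processing notes; the annotation and filters are not given in the sources used here. Tables with 1 line a cell were deposited too, holding counts of UMIs and genes, a mitochondrial percent and other values, a library name and a cell type name. UMIs of the tabulated cells were summed per library and type, and types with under 20 cells in a library were left out of the mean levels of types. Such types were fitted alone only in comparisons chosen after seeing the data, of ISC, ENTERO-PRO, PANETH and PANETH-PRE cells. APC-KO replicate 1 had 13, 11, 16 and 11 of these cells, so these fits rest on small sums. The flagged log2 ratios include such types too. Sums were compared in R 4.3.3 with edgeR 4.0.16 (TMM factors, filterByExpr, quasi-likelihood test, Benjamini-Hochberg adjustment over all genes tested at 0.05). Each fit held 2 libraries a genotype. Type against type is a description, since the names were made from these cells. The fits were tested on simulated data. Doublet removal by the authors is not given in the sources used here, and none was done.

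Thinning drew 2000 UMIs of each cell, and left out shallower cells, 161 and 50 in WT and 10 and 292 in APC-KO. The kept cells held 24677647, 21003179, 3009636 and 27285079 UMIs in the same order, so 1 UMI is worth 0.332 CPM at most over all kept cells and far more in small types. Alternatives were DESeq2 1.42.0 (size factors in edgeR, and the Wald test), the replicate number as a block, no filter beyond 1 count, leaving out 1 library, thinned cells, a minimum of 2000 UMIs a cell, subtraction of 5% free RNA (barcodes of 1 to 50 UMIs), and an equal mix of EC, GOBLET and GOBLET-PRE cells with limma 3.58.1. Where a library was left out, its group kept 1 sample, which is assumed to vary like the other group. The fits of single types, of PANETH-PRE against PANETH, the crossed block and levels without marker genes were chosen after seeing the data. The members and lists were chosen with earlier results of these data known. Named genes were the 6 members, list genes past the test in a fit or the 3 highest of a list with none, and the 3 genes most like each member.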

Additional observations from a re-analysis of the deposited data

Results flagged for a closer look

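Several genotype differences of a member were not alike in a pair of cell types or sums. The tested one is Ccl9 in GOBLET-PRE against PROGENITOR cells, with a difference of 0.96 between the log2 fold changes. In GOBLET-PRE cells the groups overlapped (0.26, SE 0.23), so opposite directions are not shown for this pair. The share of SEC-PRO cells in PROGENITOR also differed between genotypes, and its part was not tested. For the others every APC-KO library lay above both WT libraries in one type and below both in the other, and except for the added fit of the Paneth types the difference itself was not tested. They are given as differences of log2 ratios of mean CPM, APC-KO over WT, and many rest on types with under 20 cells in APC-KO replicate 1. For Ccl9 the difference was 3.18 between PANETH and PROGENITOR cells and 2.61 between PANETH and PANETH-PRE cells. For Ccl25 it was 2.00 between PANETH-LINEAGE and ISC cells, 2.30 between PANETH-LINEAGE and ENTERO-PRO cells, 2.45 between PANETH and ISC cells and 2.75 between PANETH and ENTERO-PRO cells. For Cx3cl1 it was 1.76 between PANETH-LINEAGE and GOBLET-PRE cells and 2.00 between PANETH-PRE and GOBLET-PRE cells, on 4, 7, 1 and 40 UMIs in PANETH-LINEAGE. For Cxcl16 it was 2.33 between PROGENITOR and PANETH-LINEAGE cells and 2.89 between PROGENITOR and PANETH cells, on 7, 9, 1 and 32 UMIs in PROGENITOR. Since 34.5% to 51.2% of all genes had separate groups in a sum, separation in one sum is common here.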

How the results depend on the processing

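The counts of members called, 0 in each of the 6 genotype sums and 1 in the interaction of GOBLET-PRE with PROGENITOR, rest on 2 libraries a genotype, and APC-KO replicate 1 decides many values. Cx3cl1 and Cxcl16 rest on 1617 and 620 UMIs in all, and 9 types of APC-KO replicate 1 on under 20 cells each, so small differences there were not detectable at this depth. The log2 ratios of PANETH-PRE over GOBLET-PRE for Ccl6, PANETH-PRE over GP for Ccl9 and ENTERO-PRO over ISC for Ccl25 kept their direction in all 8 alternatives each. These are ratios of means over libraries. In APC-KO replicate 2 alone the Ccl6 order was reversed, with PANETH-PRE at 0.70 times the GOBLET-PRE level. Where no other cause is named, the cause of a move was not tested.

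Leaving out each library in turn gave these ranges. The highest count of genes called came without APC-KO replicate 1 in ALL, EC, GOBLET, PROGENITOR and PANETH-LINEAGE, without WT replicate 1 in GOBLET-PRE and without APC-KO replicate 2 in the interaction. Without WT replicate 1 or 2 the interaction called 1 gene and 0 members, and PANETH-LINEAGE called 0 and 1 genes. In ALL, 0 to 483 genes were called, and Ccl6 ranged from -0.33 to 0.67, Ccl9 from -0.15 to 0.11, Ccl25 from -0.85 to 0.73, Cx3cl1 from -0.81 to 0.55 and Cxcl16 from -0.61 to 0.76. In EC, 0 to 2 members and 0 to 405 genes were called, and Ccl6 ranged from -1.95 to 1.42, Ccl9 from -1.85 to 1.23, Ccl25 from -1.20 to 0.83 and Ccl28 from -0.039 to 0.97. In GOBLET, 0 to 21 genes were called, and Ccl9 ranged from -1.34 to 0.39, Ccl25 from -1.15 to 0.17 and Cx3cl1 from -0.25 to 0.14. In GOBLET-PRE, 7 to 64 genes were called, and Ccl9 ranged from -0.048 to 0.52, Ccl25 from -1.23 to 0.31 and Cxcl16 from -0.25 to 0.27. In PROGENITOR, 0 to 1 members and 18 to 523 genes were called, and Ccl25 ranged from -0.0023 to 0.64 and Cx3cl1 from -0.64 to 1.07. The 1 member was Ccl28 without APC-KO replicate 1 and Ccl9 without APC-KO replicate 2, at -3.73. In PANETH-LINEAGE, 0 to 1 members and 0 to 461 genes were called, and Ccl6 ranged from -1.11 to 0.28 and Ccl28 from -1.51 to 0.34. The 1 member was Ccl25 without APC-KO replicate 2, at 1.45. In the interaction, 0 to 3 members and 1 to 409 genes were called, and Ccl25 ranged from -1.77 to 0.32 and Cx3cl1 from -1.03 to 0.19. The 3 members were Ccl6, Ccl9 and Ccl25 without APC-KO replicate 2, at 1.43, 4.35 and -1.77. For PANETH-PRE against PANETH, Ccl6 ranged from -0.0033 to 1.07, Ccl25 from -2.29 to 0.10 and Ccl28 from -0.17 to 1.02. The log2 ratio of Ccl28 in ISC over NON-EC ranged from -0.30 to 0.32.

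With the DESeq2 Wald test, the genes called were 21 in ALL, 14 in EC, 36 in GOBLET-PRE, 25 in PROGENITOR, 35 in PANETH-LINEAGE and 0 in the interaction, where 0 members were called. Values that turned were Ccl9 in GOBLET (-0.089), Cx3cl1 in PROGENITOR (0.025) and the interaction (-0.043), and Ccl28 in PANETH-LINEAGE (-0.30). With no filter beyond 1 count, the genes called were 21 in ALL, 174 in EC, 79 in GOBLET, 280 in GOBLET-PRE, 548 in PROGENITOR and 477 in PANETH-LINEAGE. The members called were then 1 in EC (Ccl6), 2 in PROGENITOR (Ccl9 and Ccl28) and 1 in PANETH-LINEAGE (Ccl25), and Ccl28 in PANETH-LINEAGE was -0.0089. DESeq2 size factors in edgeR turned the same value to -0.013. In cells thinned to 2000 UMIs, the genes called were 15 in EC, 3 in GOBLET, 16 in GOBLET-PRE, 307 in PROGENITOR and 14 in the interaction, and Cxcl16 in ALL (-0.27), Ccl9 (-0.063) and Cx3cl1 (0.19) in GOBLET and Cxcl16 in GOBLET-PRE (0.31) turned. With free RNA subtracted at 5%, the genes called were 3 in GOBLET, 0 in GOBLET-PRE, 39 in PROGENITOR, 124 in PANETH-LINEAGE and 29 in the interaction, where 0 members were called, and Ccl28 in PANETH-LINEAGE was -0.10. The equal mix of types turned Ccl6 (-0.14), Ccl25 (-0.34) and Cx3cl1 (0.45) in ALL.

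Same-numbered libraries did not deviate together, with correlations of -0.31 in ALL and -0.05 to 0.01 in the other sums. With 2 libraries a genotype this cannot show whether they shared a batch. With the replicate number as a block, the genes called were 4 in ALL, 0 in EC, 73 in GOBLET, 110 in GOBLET-PRE, 146 in PROGENITOR and 124 in PANETH-LINEAGE. In PROGENITOR 1 member was called under this block, Ccl9 at -1.45 (adjusted p = 0.0042 by edgeR), and Ccl25 in ALL (-0.039) and Ccl9 in GOBLET (-0.064) turned. The crossed pairing, chosen after seeing the data, called 1 gene in ALL and gave Ccl25 -0.026. The interactions already hold the library as a block.

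Among single types chosen after seeing the data, ISC cells called 2 members and 350 genes with Ccl25 at -0.33, and ENTERO-PRO cells called 5 genes with Ccl6 at 0.28, Ccl9 at 0.93 and Ccl25 at -0.68. PANETH cells called 98 genes with Ccl9 at 1.02 and Ccl28 at -0.21, and PANETH-PRE cells gave Ccl6 at 0.17. Averaging the CPM of single cells turned the Ccl28 ratio of ISC over NON-EC to -0.0059. Without marker and defensin genes in the total, the log2 ratio of GOBLET over GOBLET-PRE moved from 0.32 to 0.79 for Cx3cl1 and from 2.56 to 3.04 for Cxcl16, since the total of GOBLET cells is then smaller.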
